A study of Mus musculus with 18 samples.

Results

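Ly6a, Clu, Anxa1, Anxa3, Anxa5, S100a6 and Areg are genes of the regenerating and fetal-like intestinal epithelium. They were chosen by name, and make up 7 of the 32286 features counted in each single-cell RNA library of a study of Setdb1 in the mouse intestine. The question was whether loss of Setdb1 raised such a regeneration programme in any epithelial cell type. None of the 7 genes was higher in Setdb1-KO than in WT past the test over all cells of either sort, except that Clu passed it in lineage-traced cells under 1 alternative scaling. Within cell classes, 29 of 49 pairs of a gene and a class had enough counts for the test in the Lgr5+ sort. In the lineage-traced sort 19 of 56 pairs did. None of these pairs was higher past the test with the main settings. Among all genes tested over all cells, 0.812% (Lgr5+) and 1.54% (lineage-traced) were called higher. Within single classes the share called higher was 0.0480% to 0.599% in the Lgr5+ sort and 0.00% to 7.71% in the lineage-traced sort. At most of these shares few pairs of any genes would be called, so their lack says little about these 7 in particular. In lineage-traced stem-like cells S100a6 alone could be tested. Areg, S100a6 and Ly6a were lower in some classes, and Areg was also lower over all lineage-traced cells. Only the calls of Areg over all lineage-traced cells and in their barcodes of no marker class held in every alternative setting. The levels of S100a6 in the classes where it was called lay under its level in free RNA.

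The intestinal epithelium is renewed from Lgr5+ stem cells at the crypt base. After irradiation, infection or inflammation, crypt cells can pass through a transient state that resembles the fetal gut, in which the surface protein Ly6a (Sca-1), the secreted chaperone clusterin, several annexins and other genes are switched on, largely through the co-activators YAP and TAZ of the Hippo pathway. Setdb1 is a histone methyltransferase that places repressive marks on histone H3 and keeps heterochromatin silent.

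Mice of 4 groups on a C57Bl6 background, all male and aged 60 to 65 days, were compared. All of them carried Lgr5-GFP-CreERT2, a knock-in that puts GFP and the tamoxifen-dependent Cre recombinase under the Lgr5 promoter. All received 1 intraperitoneal injection of tamoxifen at 70 mg/kg, and cells were collected 5 days later. Lgr5+ WT mice carried this allele alone, and Lgr5+ Setdb1-KO mice also carried Setdb1lox/lox, in which Cre removes the third exon of Setdb1. The lineage-traced WT mice were Lgr5-GFP-CreERT2/nTnG, and the lineage-traced Setdb1-KO mice were Lgr5-GFP-CreERT2/Setdb1lox/lox/nTnG. The nTnG reporter turns from nuclear tdTomato to nuclear GFP after Cre, so that descendants of Lgr5+ cells keep the GFP. GFP+ cells were sorted from ileal crypt epithelium and frozen in medium with DMSO before 3′ droplet sequencing, with 2 libraries in each group. Cre is made only where Lgr5 is, so the deletion starts in Lgr5+ cells. By the study's account some cells without GFP came along with the Lgr5+ sort because enrichment was incomplete. It describes them as mature enterocytes, goblet, Paneth, tuft and enteroendocrine cells.

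Each library held 16881518 to 81876035 UMIs (unique molecular identifiers, each counting 1 captured transcript). Barcodes with 1000 (Lgr5+) or 500 (lineage-traced) to 18000 UMIs and under 5% mitochondrial UMIs were kept, which left 2894 to 11423 per library. The median UMI count of a kept barcode was 4686 to 9336 in the Lgr5+ libraries and 961 to 2085 in the lineage-traced ones. Lineage-traced WT 2 stood apart: barcodes of at most 100 UMIs, which hold mostly free RNA, took up 42.2% of its UMIs, against 2.69% to 13.01% in the other 7 libraries. These barcodes are called empty droplets below, and their pooled level is given as the background of each gene. Any pair of libraries shared 3 to 34 kept barcodes, at most 0.449% of the smaller library. Levels are UMIs per 1000000 UMIs of the same barcodes (CPM), and since the kit counts 1 end of each transcript they were not divided by gene length, so that levels are compared between samples and classes rather than between genes.

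Setdb1 itself, on chromosome 3 (95323525-95357202, GRCm38.p6), was checked first. It stood at 11.3 and 9.93 CPM in the Lgr5+ WT libraries and at 5.32 and 6.21 CPM in the Lgr5+ Setdb1-KO libraries, a log2 fold change of -0.85 ± 0.14 (SE; edgeR adjusted p = 0.0470). The 2 genotypes did not overlap, but the call was lost in 6 of 14 alternative settings, among them leaving out WT 1 (adjusted p = 0.136), WT 2 (adjusted p = 0.103) or KO 1 (adjusted p = 0.105). The lineage-traced libraries held Setdb1 at 6.11 and 4.21 CPM in WT and at 10.4 and 7.85 CPM in the libraries labelled Setdb1-KO (log2 fold change 0.24 ± 0.23, adjusted p = 0.603). A 3′ count lies outside the deleted exon and cannot show the deletion directly, so these values do not settle the labels in either sort. By the study's account the deletion was verified by PCR on sorted GFP+ cells of both kinds of mice, a measurement not analysed here.

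Kept barcodes were placed in classes by their share of UMIs from fixed marker genes, as stem-like, dividing progenitor-like, enterocyte-like, goblet-like, Paneth-like, enteroendocrine-like, tuft-like and T cell-like, and the barcodes that passed no marker threshold are called remaining. T cell-like barcodes (0.0700% to 0.587% of the Lgr5+ libraries and at most 0.0879% of the lineage-traced ones) were thus already apart from the remaining ones. The classes are ranges of a marker share rather than discrete types. Between 11.7% and 16.6% of barcodes in the Lgr5+ libraries and 12.3% and 16.2% in the lineage-traced ones lay near a threshold, and 4.59% to 14.3% passed that of more than 1 class. A class was compared only where every library held at least 20 of its barcodes, which left 7 classes in the Lgr5+ sort (no Paneth-like or T cell-like class) and 8 in the lineage-traced sort (no T cell-like class). The labels call the cells of every library stem cells, while the stem-like class held 14.9% to 31.5% of barcodes in the Lgr5+ libraries and 5.07% to 15.2% in the lineage-traced ones.

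The level of each gene over all kept barcodes is shown in the plot of CPM by library. S100a6, a small calcium-binding protein of the S100 family, lies on chromosome 3 (90612894-90614414), 4.71 Mb from Setdb1. It was at 188 and 122 CPM in Lgr5+ WT, 163 and 159 CPM in Lgr5+ Setdb1-KO, 652 and 750 CPM in lineage-traced WT and 411 and 546 CPM in the lineage-traced libraries labelled Setdb1-KO. The empty droplets of the same libraries held it at 126 to 195 CPM and 551 to 665 CPM, so its level in kept barcodes was close to that of free RNA.

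The annexins bind phospholipid membranes in the presence of calcium. Anxa5, on chromosome 3 (36448923-36475887), was at 15.998 and 13.5 CPM in Lgr5+ WT and 13.1 and 15.7 CPM in Lgr5+ Setdb1-KO, and at 5.85 and 5.94 CPM in lineage-traced WT and 8.89 and 8.15 CPM in the libraries labelled Setdb1-KO. Anxa3, on chromosome 5 (96793385-96845968), was at 7.90 and 6.61 CPM in Lgr5+ WT and 7.64 and 7.30 CPM in Lgr5+ Setdb1-KO, and at 2.67 and 2.60 CPM against 5.22 and 2.80 CPM in the lineage-traced sort. The genotypes overlapped for both annexins in the Lgr5+ sort and did not in the lineage-traced sort. There 60.8% of genes with at least 20 UMIs were likewise higher in both libraries labelled Setdb1-KO than in both WT libraries. Anxa1, on chromosome 19 (20373434-20390671), which mediates part of the anti-inflammatory action of glucocorticoids, was close to the detection limit in the Lgr5+ sort, with 12, 3, 13 and 10 UMIs in WT 1, WT 2, KO 1 and KO 2. Among lineage-traced cells Anxa1 was at 2.09 and 3.22 CPM in WT and 2.11 and 3.03 CPM in the libraries labelled Setdb1-KO.

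Ly6a, on chromosome 15 (74994877-74998031), encodes the lipid-anchored surface protein Sca-1. It was at 5.06 and 4.15 CPM in Lgr5+ WT and 3.30 and 3.47 CPM in Lgr5+ Setdb1-KO, with 2.57 to 4.32 CPM in the empty droplets. Among lineage-traced cells it was at 2.46 and 2.35 CPM in WT and 2.00 and 2.69 CPM in the libraries labelled Setdb1-KO. Clu, on chromosome 14 (65968483-65981548), encodes clusterin, which marks rare revival stem cells after damage. Its level was 1.43 and 4.34 CPM in Lgr5+ WT and 1.81 and 0.995 CPM in Lgr5+ Setdb1-KO, with WT 2 above the other 3 libraries and WT 1 within the range of the Setdb1-KO libraries. For lineage-traced cells Clu was at 1.36 and 2.23 CPM in WT and at 4.11 and 2.95 CPM in the libraries labelled Setdb1-KO. The genotypes did not overlap, with Setdb1-KO higher, as was so for 60.8% of genes with at least 20 UMIs. In the empty droplets of the Lgr5+ libraries Clu was at 0.571 to 1.36 CPM, Anxa3 at 4.29 to 5.75 CPM and Anxa5 at 8.001 to 15.9 CPM. In those of the lineage-traced libraries the ranges were 0.455 to 1.68 CPM for Clu, 2.10 to 5.45 CPM for Anxa3, 2.10 to 9.22 CPM for Anxa5, 0.262 to 1.82 CPM for Anxa1 and 0.838 to 4.55 CPM for Ly6a. The levels of Anxa3, Anxa5 and Ly6a over all lineage-traced barcodes thus lay within or near the range of free RNA over these libraries. Against the empty droplets of the same library, the ratio ran from 0.515 to 2.29 for Anxa3 and from 0.884 to 2.79 for Anxa5. For Ly6a it ran from 0.439 to 3.21, the last from 2 UMIs in empty droplets.

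Areg, on chromosome 5 (91139599-91148432), encodes amphiregulin, a secreted ligand of the EGF receptor. It was at 4.34 and 2.03 CPM in Lgr5+ WT and 2.43 and 3.10 CPM in Lgr5+ Setdb1-KO, above the 0.286 to 1.34 CPM of the empty droplets and with overlap of the genotypes. For lineage-traced cells it was at 8.26 and 9.40 CPM in WT (158 and 76 UMIs) and at 1.33 and 2.36 CPM in the libraries labelled Setdb1-KO (12 and 63 UMIs). The empty droplets of these 4 libraries held Areg at 2.88, 3.58, 3.64 and 1.68 CPM, so both WT libraries lay above their background, while the libraries labelled Setdb1-KO lay at 1.33 against 3.64 CPM and at 2.36 against 1.68 CPM.

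**Figure D1:**
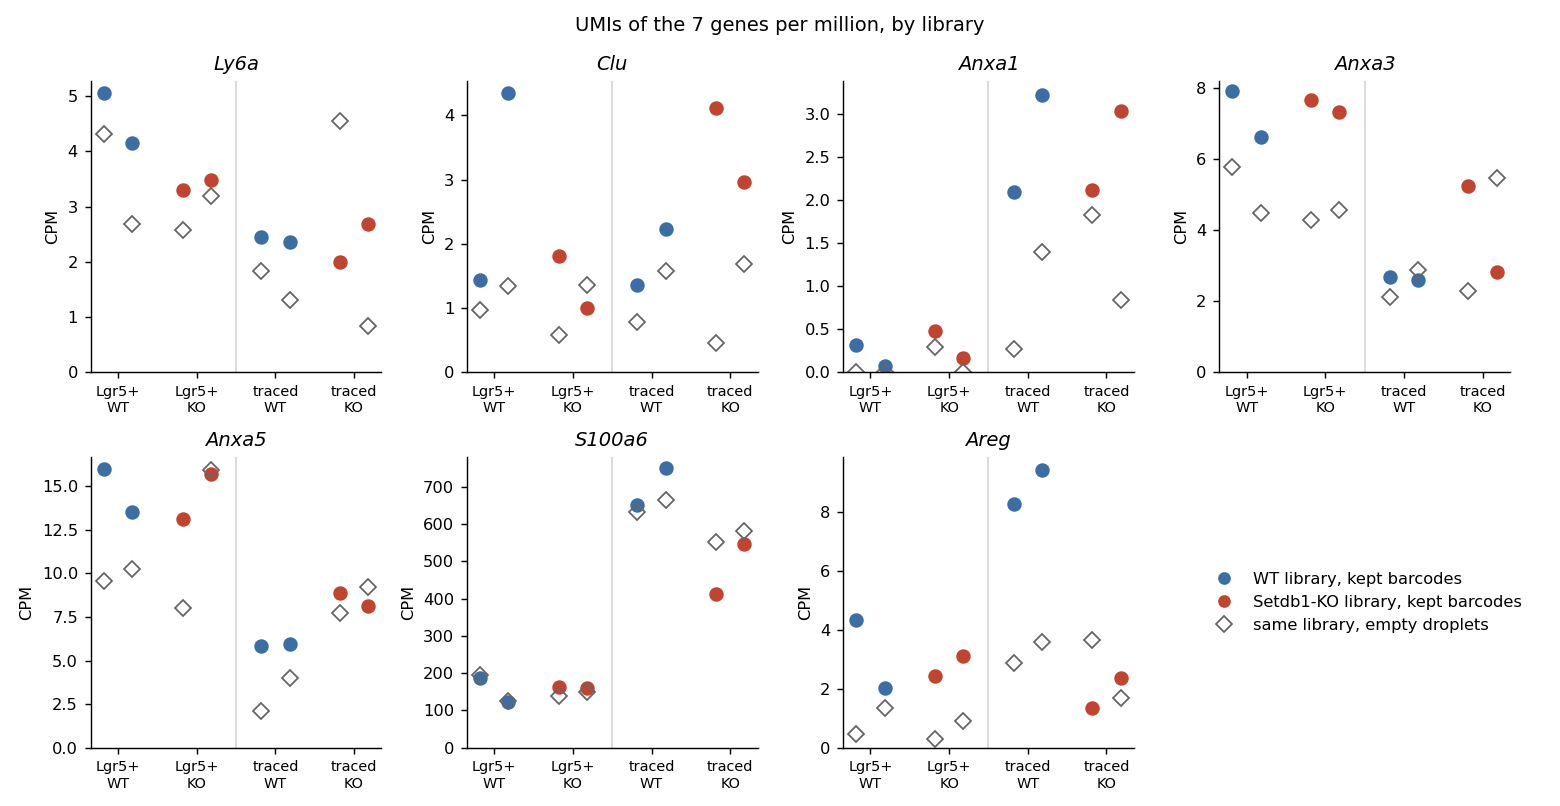
CPM (y axis, linear from 0) of each of the 7 genes in the 8 libraries (x axis, by sort and genotype); filled circles are kept barcodes of 1 library, open diamonds the empty droplets of the same library. Areg was at 8.26 and 9.40 CPM in lineage-traced WT and at 1.33 and 2.36 CPM in the libraries labelled Setdb1-KO, and S100a6 lay close to its empty-droplet level in both sorts.

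The promoters of Areg and S100a6 are shown because these were the genes with most of the lower calls. The set of RefSeq promoters used here (GRCm38.p6) held 4 of the 7 genes (Anxa1, Anxa5, S100a6 and Areg). Ly6a, Clu and Anxa3 had no entry in that set and were not searched. The 250 bases before the start of each gene were searched on both strands for TGACGTCA (the full cyclic AMP response element, CRE), TGANTCA (AP-1) and GGAATG (TEAD, the DNA-binding partner of YAP and TAZ), none of which overlaps another in the sequences shown. Capitals mark a match.
Areg, chr5:91139349-91139598, + strand: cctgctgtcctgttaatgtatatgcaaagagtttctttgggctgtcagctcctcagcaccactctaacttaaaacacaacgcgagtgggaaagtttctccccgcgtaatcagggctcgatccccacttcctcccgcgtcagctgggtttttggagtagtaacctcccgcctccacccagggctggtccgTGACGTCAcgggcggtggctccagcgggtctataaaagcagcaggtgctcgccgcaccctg
S100a6, chr3:90612644-90612893, + strand: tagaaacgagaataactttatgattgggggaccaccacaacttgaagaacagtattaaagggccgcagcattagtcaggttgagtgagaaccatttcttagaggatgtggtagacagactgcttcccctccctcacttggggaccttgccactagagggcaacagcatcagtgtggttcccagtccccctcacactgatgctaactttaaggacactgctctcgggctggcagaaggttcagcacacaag
Areg held 1 CRE, whose first base lay 61 bases before the start, and S100a6 and Anxa5 held no match. Anxa1 (chr19:20390672-20390921, - strand) held 1 TEAD match on the reverse strand, 236 bases before the start. Of 32536 promoters of the same length, 1.56% held the CRE letters, 6.73% those of AP-1 and 12.6% those of TEAD. A match describes these letters only and is not a binding site.

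In the Lgr5+ sort, none of the 7 genes passed the test between Setdb1-KO and WT (edgeR quasi-likelihood test over 13662 genes, 0 of 7 called, against 1.34% of all genes tested, 0.812% higher and 0.527% lower; DESeq2 also called 0). The log2 fold changes ran from -1.13 for Clu to 0.58 for Anxa1, with a median of -0.00 against -0.01 for all genes tested. At an unadjusted p under 0.05, only Ly6a was counted (log2 fold change -0.42 ± 0.16, unadjusted p = 0.0395, adjusted p = 0.261). It was also the 1 gene of 7 whose genotypes did not overlap in CPM, with both Setdb1-KO libraries below both WT libraries, as was so for 24.1% of the genes with at least 20 UMIs. The change of Clu was -1.13 ± 0.55 (adjusted p = 0.342) and became -0.01 when WT 2 was left out. For Anxa3, Anxa5 and S100a6 the log2 fold changes were 0.06 ± 0.12, -0.00 ± 0.14 and 0.08 ± 0.15, and for Areg -0.14 ± 0.33.

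Among lineage-traced cells, Areg was the 1 gene of 7 past the test (edgeR over 12205 genes, against 8.73% of all genes tested, 1.54% higher and 7.19% lower). Areg fell by 2.60 ± 0.30 (SE) on the log2 scale (edgeR adjusted p = 0.000116), a 6.08-fold lower level in the libraries labelled Setdb1-KO, and it was lower in both of them than in either WT library. It was called in all 14 alternative settings, with log2 fold changes from -3.37 to -2.02 and adjusted p from 5.63e-29 to 0.00255. Without WT 2, the library with most free RNA, the change was -2.49 (adjusted p = 1.39e-10). In sums over all barcodes, fewer cells of a type and less RNA per cell cannot be told apart. Enterocyte-like barcodes, in which Areg was highest, made up 13.7% and 9.66% of the WT libraries and 1.10% and 1.57% of those labelled Setdb1-KO. With these barcodes left out, Areg fell by 2.02 (edgeR adjusted p = 0.00255). Barcodes under the marker threshold stayed in, so this fit does not separate fewer cells from less RNA per cell either.

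S100a6 had a log2 fold change of -1.07 ± 0.34 (adjusted p = 0.0810), with both libraries labelled Setdb1-KO below both WT libraries. It passed the threshold with DESeq2 (adjusted p = 0.0103), without a filter on low counts (adjusted p = 0.0403), and without KO 1 (-0.76, adjusted p = 0.0471) or KO 2 (-1.45, adjusted p = 0.00101), but not without WT 1 (adjusted p = 0.453) or WT 2 (adjusted p = 0.578). The other 5 genes had log2 fold changes from -0.46 (Ly6a) to 0.51 (Clu), the median of the 7 being -0.39 against 0.01 for all genes tested.

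The lineage-traced comparison depends on how libraries are scaled. With library totals in place of TMM factors, the median of all genes moved to 0.54, and the calls turned from 188 higher and 878 lower to 3316 higher and 491 lower. Relative to that median, Areg was at -2.69, S100a6 at -1.09 and Clu at 0.48, and Clu then passed the threshold (1.02, adjusted p = 0.0461), while Ly6a, Anxa1 and Anxa3 changed sign before the median was taken off. By CPM, both libraries labelled Setdb1-KO were above both WT libraries for Clu, Anxa3 and Anxa5, as were 60.8% of genes with at least 20 UMIs, and below them for S100a6 and Areg, as were 8.31% of genes.

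**Figure D2:**
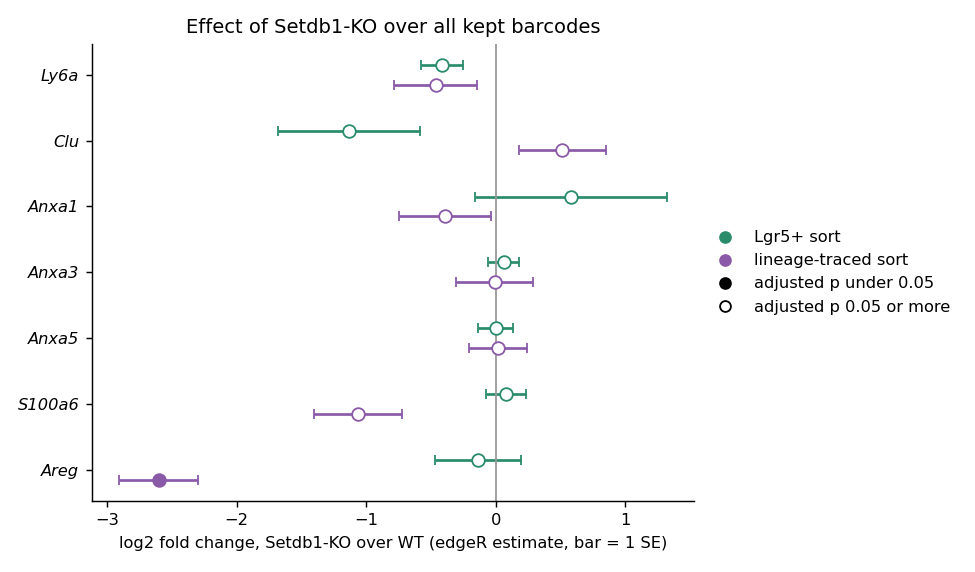
Log2 fold change of Setdb1-KO over WT (x axis, log2 scale) with its standard error for each of the 7 genes in the 2 sorts, over all kept barcodes; a filled point has an edgeR adjusted p under 0.05. Areg in the lineage-traced sort, at -2.60, is the 1 filled point, and Clu in the Lgr5+ sort and S100a6 in the lineage-traced sort lie at -1.13 and -1.07 as open points.

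The genes differed in the cells that held them. In the Lgr5+ sort, 4 of 7 genes were higher in 1 class than in the next (edgeR over 12195 genes), read against the large share of all genes that differ between classes. Anxa3 was at 49.4 and 40.3 CPM in goblet-like barcodes of WT and 47.2 and 43.5 CPM in those of Setdb1-KO, with a mean of 45.1 CPM against 1.86 CPM in the remaining barcodes, the next in order (log2 difference 4.73, adjusted p = 3.24e-24, with 66.3% of genes called between these classes). S100a6 was at 1190 and 765 CPM in goblet-like barcodes of WT and 1012 and 937 CPM in those of Setdb1-KO, against a mean of 53.8 CPM in tuft-like barcodes (4.59, adjusted p = 8.37e-18, with 43.1% of genes called). In the other 6 classes S100a6 averaged 10.5 to 53.8 CPM, under the 126 to 195 CPM of the empty droplets, and the part of free RNA in these levels was not tested. Goblet cells secrete the mucus of the gut, and in these libraries both Anxa3 and S100a6 were highest in this class.

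Areg was also highest in goblet-like barcodes, at 9.46 and 5.98 CPM in WT and 10.2 and 8.81 CPM in Setdb1-KO, against a mean of 2.73 CPM in enterocyte-like barcodes (log2 difference 2.01, adjusted p = 0.000768, with 61.3% of genes called). Clu was highest in stem-like barcodes, at 3.00 and 11.3 CPM in WT and 5.51 and 4.85 CPM in Setdb1-KO, against a mean of 1.85 CPM in enteroendocrine-like barcodes (2.22, adjusted p = 0.000587, with 65.5% of genes called). Anxa5 had its highest means in enteroendocrine-like and goblet-like barcodes, at 91.4 and 54.3 CPM, which did not differ past the test (0.02, adjusted p = 0.902, with 56.7% of genes called), although with library totals as the scale they did (0.73, adjusted p = 4.26e-05). The step from goblet-like to the remaining barcodes, at 7.64 CPM, did (2.98, adjusted p = 2.15e-20). Ly6a followed the same order, with 21.1 CPM in enteroendocrine-like barcodes, 9.30 CPM in goblet-like ones and 4.38 CPM in the remaining ones, of which the first step did not pass (0.65, adjusted p = 0.0855; it passed with library totals, 1.35, adjusted p = 0.000567, with Scrublet doublets removed, adjusted p = 0.0415, and without WT 1 or KO 1, adjusted p = 0.0387 and 0.0118) and the second did (1.31, adjusted p = 4.18e-05). Anxa1 was highest in tuft-like barcodes, at 4.89 CPM, from 4, 2, 9 and 3 UMIs in WT 1, WT 2, KO 1 and KO 2, too few for the test.

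In the lineage-traced sort the highest class was the same for 5 of 7 genes, and 3 of 7 genes were higher in 1 class than in the next. S100a6 was again highest in goblet-like barcodes, at 2488 and 2432 CPM in WT and 1095 and 1569 CPM in the libraries labelled Setdb1-KO, against a mean of 797 CPM in enteroendocrine-like barcodes (log2 difference 1.43, adjusted p = 1.25e-06, with 9.96% of genes called). Anxa3 averaged 13.6 CPM in goblet-like barcodes against 4.52 CPM in enteroendocrine-like ones (1.96, adjusted p = 0.0207). This call was lost with library totals (1.74, adjusted p = 0.0596) and without KO 2 (1.24, adjusted p = 0.466), and without WT 1 or KO 1 there were too few UMIs for the test. Anxa5 was at 22.8 and 20.8 CPM in these classes, which did not differ past the test (0.05, adjusted p = 0.966), and enteroendocrine-like barcodes were above the remaining ones at 6.37 CPM (1.70, adjusted p = 0.000673, with 21.3% of genes called). Areg differed from the Lgr5+ sort in being highest in enterocyte-like barcodes, at a mean of 21.6 CPM against 8.66 CPM in enteroendocrine-like ones (2.18, adjusted p = 0.00519, with 29.6% of genes called), a mean set by its WT libraries. Ly6a, Clu and Anxa1 were highest in enteroendocrine-like (13.7 CPM), stem-like (6.12 CPM) and tuft-like (9.40 CPM) barcodes, as in the Lgr5+ sort, but had too few UMIs for the test.

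**Figure D3:**
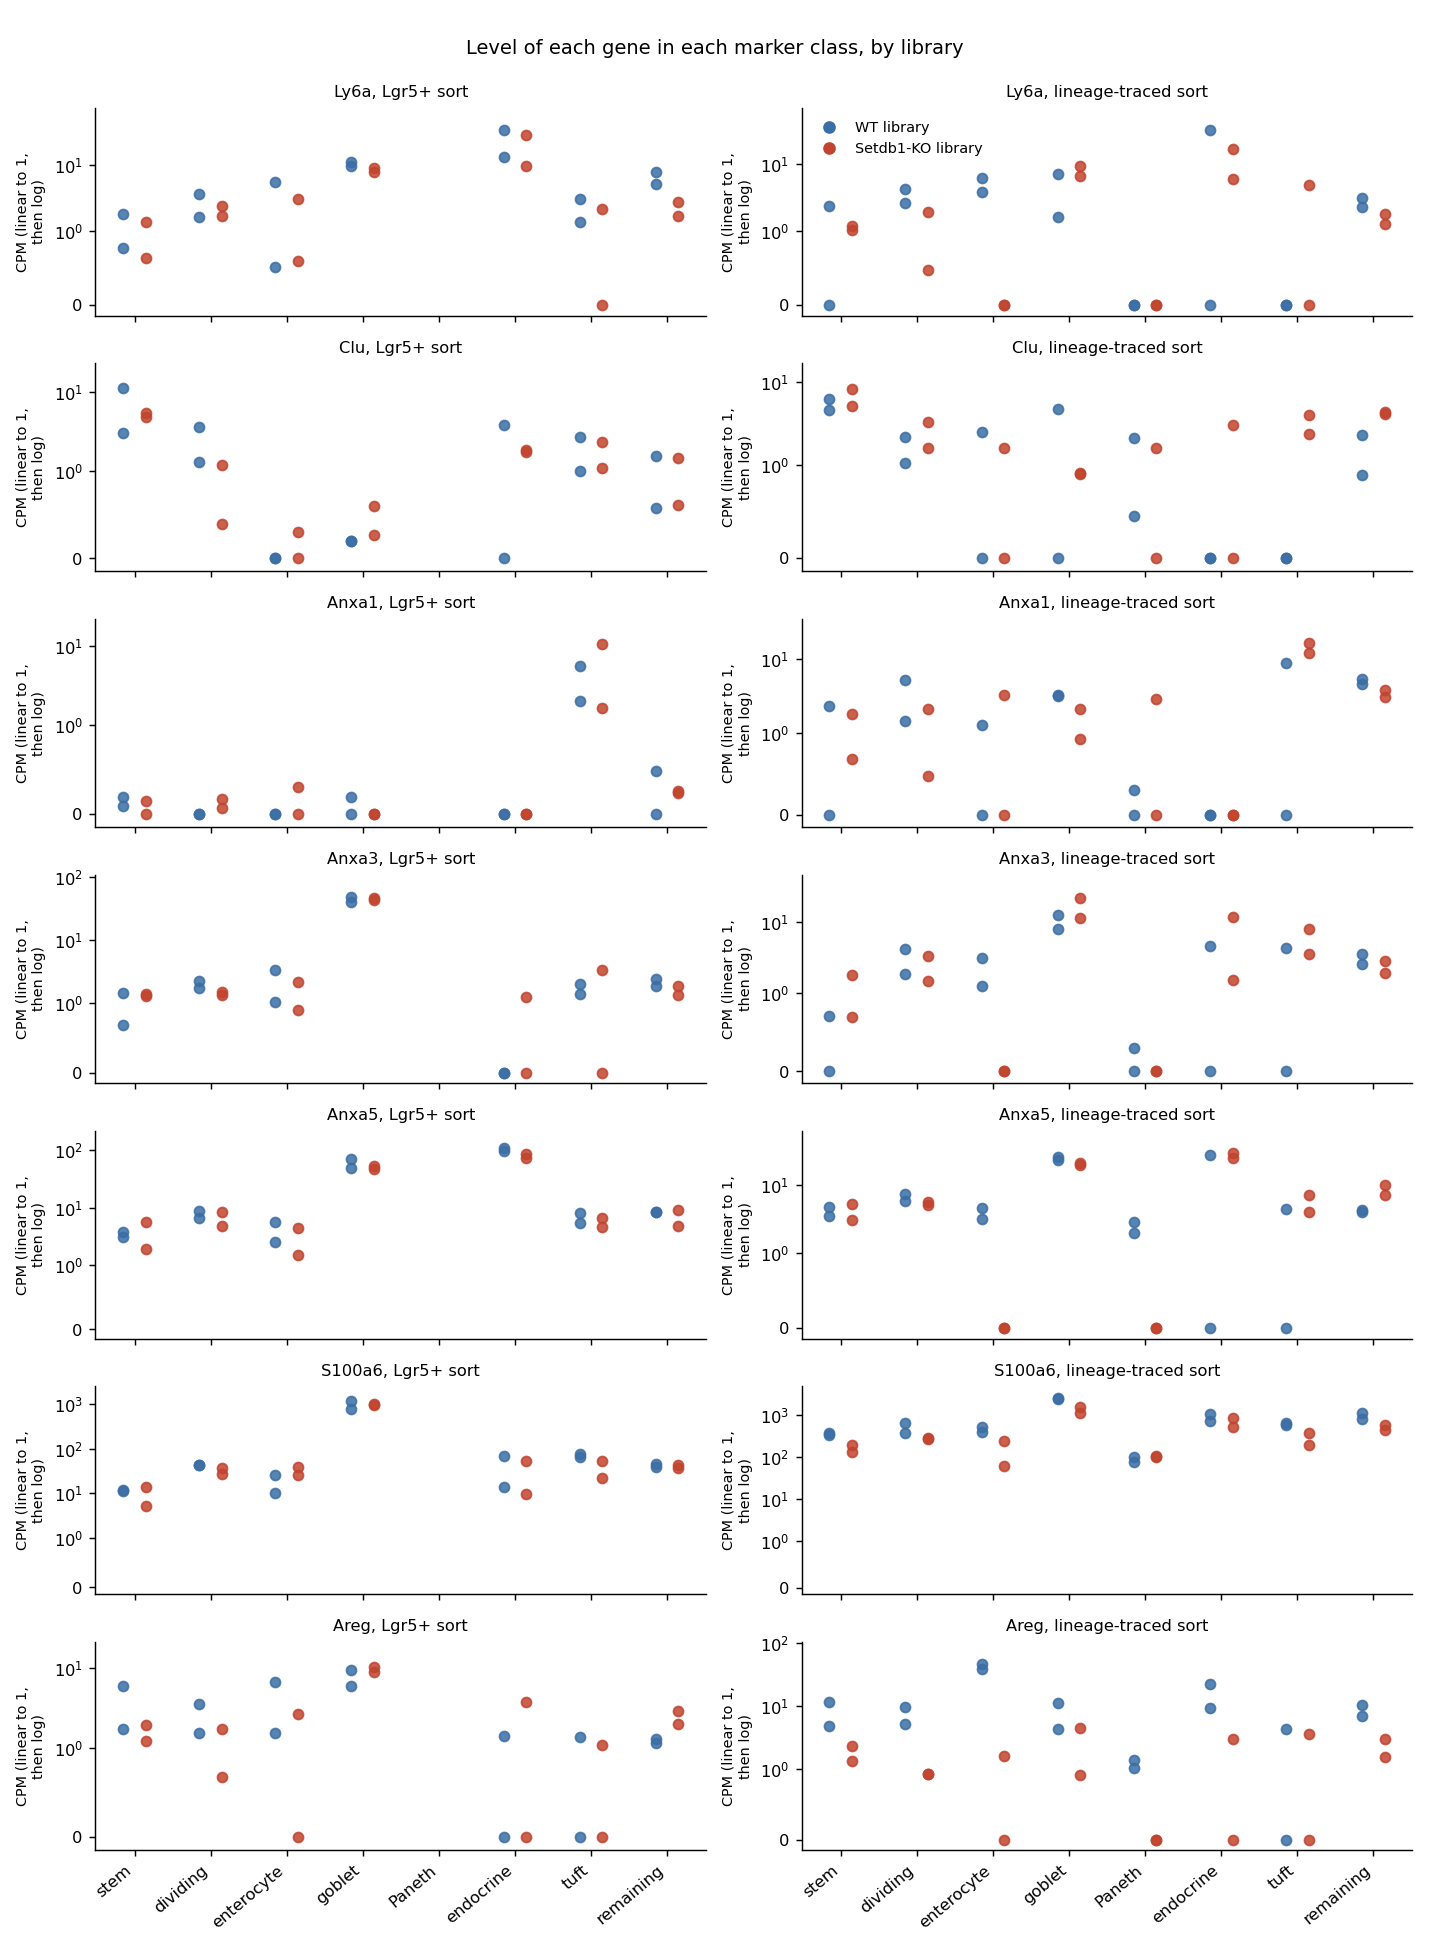
CPM of each gene (y axis, linear from 0 to 1 and logarithmic above) in each marker class (x axis) of the Lgr5+ sort (left) and the lineage-traced sort (right); each point is 1 library, in blue for WT and red for Setdb1-KO, and the Lgr5+ sort has no Paneth-like class. Anxa3 and S100a6 stand highest in goblet-like barcodes of both sorts, Clu in stem-like and Anxa1 in tuft-like barcodes.

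Within classes of the Lgr5+ sort, 29 of 49 pairs of a gene and a class had enough UMIs for the test, and 1 passed it: Ly6a in the remaining barcodes (1.30% of all genes tested there were called, 0.755% lower). Ly6a was at 7.82 and 5.22 CPM there in WT (81 and 60 UMIs) and at 1.71 and 2.76 CPM in Setdb1-KO (13 and 59 UMIs). The empty droplets held it at 4.32 and 2.68 CPM in WT and 2.57 and 3.18 CPM in Setdb1-KO. The genotypes did not overlap, and the share of genes that did so was not counted within this class. Over all Lgr5+ barcodes 24.1% of genes with at least 20 UMIs were lower without overlap. The log2 fold change of Ly6a was -1.42 ± 0.29 (edgeR adjusted p = 0.0469). The call was lost in 6 of 14 alternative settings, including DESeq2 (adjusted p = 0.0902) and leaving out WT 1 (-1.17, adjusted p = 0.251) or KO 1 (-1.20, adjusted p = 0.104). Ly6a is also made by lymphocytes. The summed level of the T cell, B cell and myeloid markers was also lower in Setdb1-KO, at 4.05 and 7.14 CPM in WT and 0.394 and 2.10 CPM in Setdb1-KO in these barcodes. Within WT, the library with more Ly6a held less of them. Empty droplets held the T cell markers alone at 106 and 74.5 CPM in WT and 14.9 and 45.9 CPM in Setdb1-KO, above these levels. The part of the immune markers in the Ly6a call was not tested, since only 1 of the remaining barcodes, in WT 2, held 3 or more of their UMIs. Over all kept barcodes of the Lgr5+ sort, 31 and 31 barcodes of WT held 3 or more such UMIs, and 0 Ly6a UMIs. The 9 and 9 such barcodes of Setdb1-KO held 6 and 2 Ly6a UMIs. In the remaining class, a single barcode of WT 1 held 17 of the 81 Ly6a UMIs of that library.

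The other 28 pairs had adjusted p from 0.195 upward. In stem-like barcodes, the class whose markers include Lgr5, the log2 fold changes ran from -1.27 for Areg (adjusted p = 0.377) to 0.33 for Anxa3 (adjusted p = 0.875), with Ly6a at -0.27 and Clu at -0.46, and 1.14% of all genes tested there were called. The share called was 0.909% in dividing progenitor-like, 0.413% in enterocyte-like, 0.0720% in enteroendocrine-like and 0.154% in tuft-like barcodes. The lowest value was that of Clu in dividing progenitor-like barcodes, at -1.93 ± 0.62 (edgeR adjusted p = 0.246). All 6 genes tested in that class had values below 0, and none passed. In goblet-like barcodes, where Anxa3, S100a6 and Areg were highest, the changes were 0.04, 0.02 and 0.31, with adjusted p of 0.999, 0.999 and 0.975 and 0.313% of genes called. How many goblet-like, enterocyte-like, enteroendocrine-like and tuft-like barcodes of Lgr5+ Setdb1-KO carried the deletion was not tested. These classes may hold cells without GFP, so their values do not show that Setdb1 has no effect there. The highest value was that of Areg in the remaining barcodes, at 1.05 ± 0.36 (adjusted p = 0.195).

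Within classes of the lineage-traced sort, 19 of 56 pairs were tested and 5 passed, all lower in the libraries labelled Setdb1-KO. The highest value was that of Clu in the remaining barcodes, at 0.893 and 2.30 CPM in WT (4 and 9 UMIs) and 4.34 and 4.17 CPM in the libraries labelled Setdb1-KO (14 and 43 UMIs). Its log2 fold change there was 1.10 ± 0.51 (edgeR unadjusted p = 0.0406, adjusted p = 0.322), without overlap. It became 0.25 when WT 1 was left out and 2.14 when WT 2 was. Over all lineage-traced barcodes, 60.8% of genes with at least 20 UMIs were higher without overlap. No such share was counted within classes, here or below. Anxa5 in the remaining barcodes (0.62, adjusted p = 0.490) and Ly6a and Anxa3 in goblet-like ones (both 0.37, adjusted p = 0.903 and 0.874) also had values above 0 and did not pass. In enterocyte-like barcodes Areg was at 46.2 and 38.6 CPM in WT (73 and 25 UMIs) and at 0 and 1.62 CPM in the libraries labelled Setdb1-KO (0 and 1 UMI), with 23.8% of genes called there, 789 of 4917 called lower. The absent count in KO 1 allowed a level of up to 25.6 CPM, since the class held only 53 barcodes there and 161 in KO 2, against 1080 and 375 in WT. Summed over libraries, the ratio of WT to Setdb1-KO was 32.3, with an exact 95% counting interval from 5.66 to 1287, and the edgeR adjusted p was 1.57e-06. The call was lost when KO 2 was left out (adjusted p = 0.169).

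Areg also fell in the remaining barcodes, from 10.3 and 6.89 CPM in WT to 1.55 and 3.01 CPM in the libraries labelled Setdb1-KO, a log2 fold change of -2.04 (adjusted p = 0.000294, with 4.91% of genes called, 4.29% lower) that was called in all 14 alternative settings. In dividing progenitor-like barcodes it was at 5.15 and 9.52 CPM in WT and 0.939 and 0.937 CPM in the libraries labelled Setdb1-KO, from 14, 9, 2 and 7 UMIs (-2.73, adjusted p = 0.00531, with 2.19% of genes called, 1.80% lower). This last call was lost with DESeq2 (adjusted p = 0.308) and without WT 1 (adjusted p = 0.299), WT 2 (adjusted p = 0.441) or KO 2 (adjusted p = 0.219).

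S100a6 fell in stem-like barcodes, from 327 and 367 CPM in WT to 194 and 129 CPM in the libraries labelled Setdb1-KO (-1.17 ± 0.30, adjusted p = 0.0187, with 1.44% of genes called, 1.16% lower), and in enterocyte-like barcodes, from 385 and 528 CPM to 59.7 and 244 CPM (-1.40 ± 0.41, adjusted p = 0.00854). The genotypes did not overlap in either class, but all of these levels lay under those of the empty droplets, which were at 633 and 665 CPM in WT and 551 and 581 CPM in the libraries labelled Setdb1-KO. Their part in these calls was not tested. The stem-like call was lost without WT 1 (adjusted p = 0.405), WT 2 (adjusted p = 0.657) or KO 2 (adjusted p = 0.641), and the enterocyte-like call with DESeq2 (adjusted p = 0.511) and without any 1 of the 4 libraries (adjusted p from 0.0632 to 0.404). In goblet-like barcodes, well above the background, the change was -0.94 ± 0.31 and did not pass (adjusted p = 0.105, with 2.41% of genes called), although the genotypes did not overlap. S100a6 in tuft-like barcodes (-1.26, adjusted p = 0.220, with 1.34% of genes called), enteroendocrine-like ones (-0.63, adjusted p = 0.569, with 2.69% of genes called), Paneth-like ones (-0.20, adjusted p = 0.818, with 1.81% of genes called) and dividing progenitor-like ones (-0.92, adjusted p = 0.130) did not pass either.

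**Figure D4:**
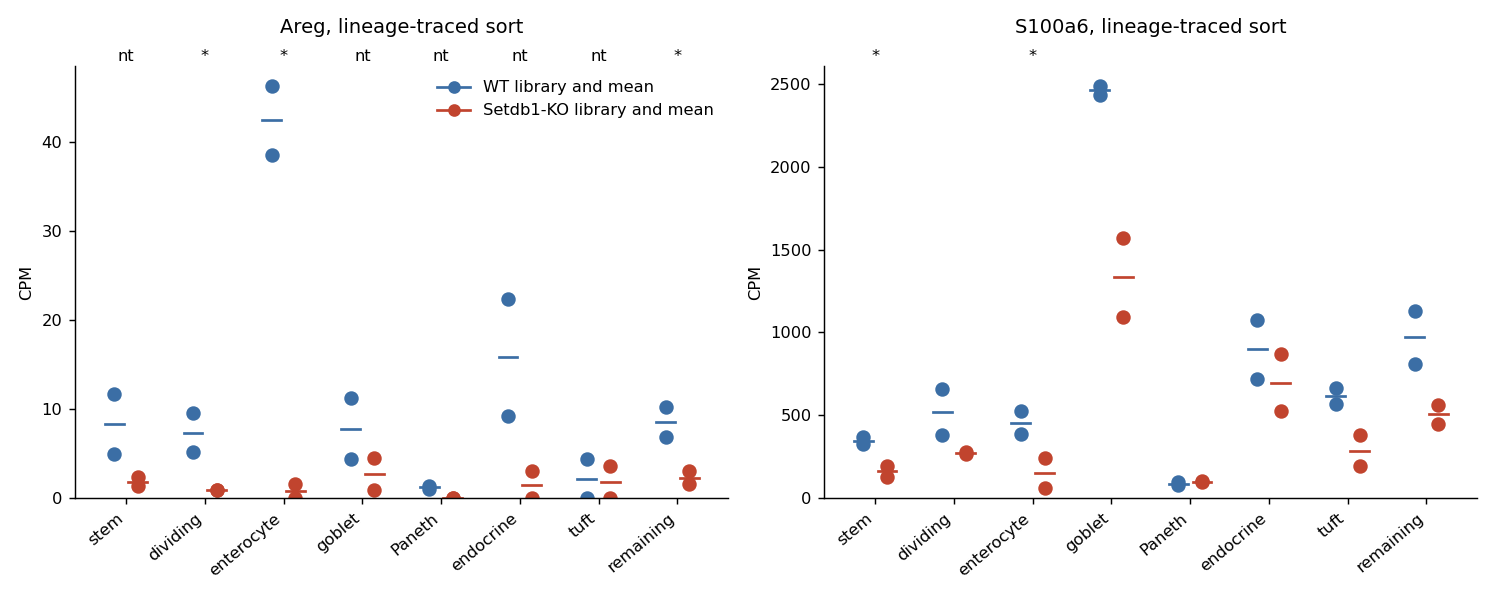
CPM (y axis, linear from 0) of Areg and S100a6 in each class of the lineage-traced sort (x axis); points are libraries, short bars are means of the 2 libraries, an asterisk marks an edgeR adjusted p under 0.05 and nt a pair that was not tested. Areg in enterocyte-like barcodes stood at 46.2 and 38.6 CPM in WT and at 0 and 1.62 CPM in the libraries labelled Setdb1-KO, and S100a6 was highest in goblet-like barcodes of both genotypes.

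Whether the change differed between the sorts was tested directly, as the interaction of genotype and sort. Over all kept barcodes it passed for Areg alone (difference in log2 fold change -2.45 ± 0.50, edgeR adjusted p = 0.0111; 1 of 7 genes, against 7.58% of all genes tested), and this held in all 12 alternative settings, from -3.22 to -1.96. The difference for S100a6 was -1.12 (adjusted p = 0.0975), and it passed with DESeq2 (adjusted p = 0.0441), without a filter (adjusted p = 0.0231), with a replicate block (adjusted p = 0.0139) and without lineage-traced KO 2 (-1.50, adjusted p = 0.0115). For Clu it was 1.66 (adjusted p = 0.207), and it passed with library totals (2.12, adjusted p = 0.0366), without a filter (adjusted p = 0.00160) and without Lgr5+ WT 1 (2.28, adjusted p = 0.0166), but fell to 0.56 (adjusted p = 0.679) without Lgr5+ WT 2. Within classes it passed for Areg in the remaining barcodes (-3.07 ± 0.54, adjusted p = 0.00716, with 1.77% of genes called) and for S100a6 in enterocyte-like barcodes (-1.97 ± 0.60, adjusted p = 0.0443, with 7.99% of genes called). In alternatives added after seeing the data, the first of these was lost without Lgr5+ KO 2 (adjusted p = 0.0991) or lineage-traced WT 1 (adjusted p = 0.0518). The second was lost in 5 of 12, with DESeq2 (adjusted p = 0.116) and without Lgr5+ WT 1 (adjusted p = 0.1501), Lgr5+ KO 1 (adjusted p = 0.0779), lineage-traced WT 1 (adjusted p = 0.0705) or lineage-traced KO 1 (adjusted p = 0.0852), and ranged from -3.93 to -1.39. The 2 sorts also differ in reporter, in depth and in the UMI minimum of a kept barcode, and these cannot be told apart from the sort. Enterocyte-like barcodes made up 2.12% and 4.32% of Lgr5+ WT and 10.2% and 5.20% of Lgr5+ Setdb1-KO. In the lineage-traced sort they made up 13.7% and 9.66% of WT and 1.10% and 1.57% of the libraries labelled Setdb1-KO. The part of these shares in the interaction was not tested.

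The share of barcodes with at least 1 UMI of a gene was compared after each barcode was thinned to 2000 (Lgr5+) or 1000 (lineage-traced) UMIs. This left out 113 and 146 shallower barcodes of Lgr5+ WT and 52 and 541 of Lgr5+ Setdb1-KO, and 2496 and 1751 of lineage-traced WT and 2493 and 2361 of the libraries labelled Setdb1-KO. With 2 libraries against 2, the smallest p an exact two-sided permutation test can give is 0.33, so no share could pass. For Areg the share was 0.974% and 1.13% in lineage-traced WT and 0.149% and 0.203% in the libraries labelled Setdb1-KO (unthinned, 1.76% and 1.75% against 0.228% and 0.420%). In Paneth-like barcodes, the class with the least Areg, it was 0.0892% and 0.0910% in WT and 0 in the other 2 libraries. For S100a6 it was 29.0% and 37.9% against 24.2% and 23.2%, with 7.08% to 12.4% in Paneth-like barcodes. Clu was at 0.151% and 0.160% in WT and 0.328% in both libraries labelled Setdb1-KO, Anxa5 was at 0.617% and 0.641% against 0.821% and 0.780%, and Ly6a at 0.390% and 0.291% against 0.230% and 0.275%. Paneth-like barcodes had 0 to 0.221% for Clu, 0 to 0.301% for Anxa5 and 0 for Ly6a in these libraries, in 68 to 747 thinned barcodes. The genotypes did not overlap for any of these 5 genes, of which Clu and Anxa5 were higher in the libraries labelled Setdb1-KO, as were 43.5% of the genes with at least 20 UMIs by the same share, and S100a6, Areg and Ly6a lower, as were 12.0%. Unthinned Ly6a overlapped, at 0.547% and 0.438% against 0.374% and 0.674%. In the Lgr5+ sort the genotypes did not overlap for Ly6a alone, at 0.861% and 0.775% against 0.665% and 0.678%, lower in Setdb1-KO as were 22.1% of genes, and unthinned they did, at 2.81% and 1.99% against 2.35% and 1.56%.

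Whether single barcodes held several of these genes at once was counted next. At least 3 of the 7 genes were held by 126 of 4768 and 89 of 6133 barcodes of Lgr5+ WT. In Lgr5+ Setdb1-KO they were held by 59 of 2894 and 117 of 11423. Among lineage-traced barcodes they were held by 18 of 7860 and 12 of 3882 in WT. In the libraries labelled Setdb1-KO they were held by 12 of 4816 and 23 of 10239. Barcodes were not thinned to equal depth for these counts. At least 4 were held by 0 to 16 barcodes per library. These counts rest mostly on S100a6 and Anxa5, since without this pair 0 to 2 barcodes per library held at least 3 of the other 5 genes and no library held a barcode with 4 of them.

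Further genes of the same programme were counted from a separate list. Of 27 other fetal-like and regenerative genes, 17 were tested in the Lgr5+ sort and 1 was called, against the 1.34% of all genes given above. That gene was Lgals3, which encodes the sugar-binding protein galectin-3, and it rose from 63.7 and 50.4 CPM in WT to 92.6 and 79.3 CPM in Setdb1-KO (log2 fold change 0.60 ± 0.10, adjusted p = 0.0379, called in 8 of 14 alternative settings). In the lineage-traced sort 8 of 17 were called, all lower in the libraries labelled Setdb1-KO (8.73% of all genes were called there, 7.19% lower), and the median of the list was -0.72 against 0.01 for all genes tested. Emp1, an epithelial membrane protein, fell from 12.5 and 6.31 CPM to 1.67 and 0.860 CPM (-3.60, adjusted p = 2.38e-05), Trim15 from 2.51 and 3.59 CPM to 0.667 and 0.374 CPM (-3.13, adjusted p = 0.000324), and Lgals3 from 87.4 and 99.6 CPM to 18.8 and 31.5 CPM (-2.38, adjusted p = 0.000451). These 3 genes were called in every alternative setting. With library totals as the scale, the list had 3 genes higher and 6 lower and a median of -0.28, under a median of all genes of 0.54. By class, 6 of 11 were lower in lineage-traced enterocyte-like barcodes, where 789 of 4917 genes were, and 5 of 13 in the remaining ones, where 4.29% of genes were, and none was higher in any lineage-traced class with TMM scaling. Within classes of the Lgr5+ sort 1 of 10 was higher in enterocyte-like barcodes, where 0.413% of genes were called, and 1 of 13 lower in goblet-like ones, where 0.313% were. These genes, named after their values were seen, were Tm4sf4, which encodes a membrane protein (2.30 ± 0.40, adjusted p = 0.0328), and Mmp7, the matrix metalloproteinase matrilysin (-1.56 ± 0.21, adjusted p = 0.0175). Tm4sf4 was among the 6 genes lower in lineage-traced enterocyte-like barcodes (-5.88, adjusted p = 6.65e-13).

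The targets and partners of YAP and TAZ gave 0 of 10 calls in the Lgr5+ sort (median 0.00, 1.34% of all genes called) and 3 of 12 in the lineage-traced sort (8.73% of all genes called), all lower, with 7.19% of all genes lower: the kinase gene Lats2 (1.57 and 1.98 CPM against 0.445 and 0.0748 CPM, -3.71, adjusted p = 0.00142), the kinase gene Nuak2 (-0.88, adjusted p = 0.0208, called in 9 of 14 alternative settings) and Crim1 (-0.99, adjusted p = 0.0335, called in 8 of 14). With library totals 1 gene was higher and 1 lower, and the median of this list turned from -0.19 to 0.36, again under the 0.54 of all genes. Of the ligands and receptors of the EGF family, 0 of 11 were called over all cells of the Lgr5+ sort. Within its classes Erbb3, a receptor of this family, was lower in stem-like (-0.80, adjusted p = 0.0217) and remaining barcodes (-0.73, adjusted p = 0.0382), and 2 genes of the list were lower over all cells with DESeq2. Among lineage-traced cells 1 of 11 was called, Hbegf, a ligand of the same receptor as Areg, at 7.16 and 5.07 CPM in WT and 4.78 and 3.89 CPM in the libraries labelled Setdb1-KO (-1.06, adjusted p = 0.0138, called in 9 of 14 alternative settings, and not with library totals).

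Relatives of the 7 genes were counted against the same shares of all genes called, 1.34% in the Lgr5+ sort and 8.73% in the lineage-traced sort. Of the other annexins, Anxa13 rose in the Lgr5+ sort (1 of 7; 87.0 and 78.9 CPM against 135 and 109 CPM, 0.56, adjusted p = 0.0343, called in 8 of 14 alternative settings), and Anxa7 and Anxa2 fell in the lineage-traced sort (2 of 6; -1.06, adjusted p = 0.00733, and -0.84, adjusted p = 0.0352), the last 2 not with library totals, where the median of the family turned from -0.30 to 0.24. Of the other S100 genes, 0 of 10 were called over all cells of the Lgr5+ sort and 1 of 8 in the lineage-traced sort. That was S100g, the calbindin of absorptive enterocytes, which was also lower in the remaining barcodes of the Lgr5+ sort (-1.99, adjusted p = 0.0166) and in lineage-traced cells fell from 405 and 430 CPM to 29.6 and 33.1 CPM (-4.26, adjusted p = 4.86e-06). Of the other Ly6 and uPAR family genes, Ly6e rose in the Lgr5+ sort from 130 and 121 CPM to 274 and 254 CPM (1 of 8; 1.09 ± 0.08, adjusted p = 0.00361, called in all 14 alternative settings). Within its classes Ly6e was higher in stem-like, dividing progenitor-like, goblet-like and remaining barcodes (0.91 to 1.54), and Lypd8 lower in the remaining ones (-0.64, adjusted p = 0.0168). Among lineage-traced cells Ly6e fell from 66.6 and 53.6 CPM to 42.8 and 41.4 CPM (-1.04, adjusted p = 0.0168), Ly6m fell from 55.7 and 60.4 CPM to 0.111 and 0.374 CPM (-8.03, adjusted p = 1.78e-07), and Ly6g6d rose from 1.20 and 1.36 CPM to 3.78 and 4.97 CPM (1.35, adjusted p = 0.0267), making 1 higher and 2 lower of 5. The call of Ly6e in the lineage-traced sort was absent with library totals.

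**Figure D5:**
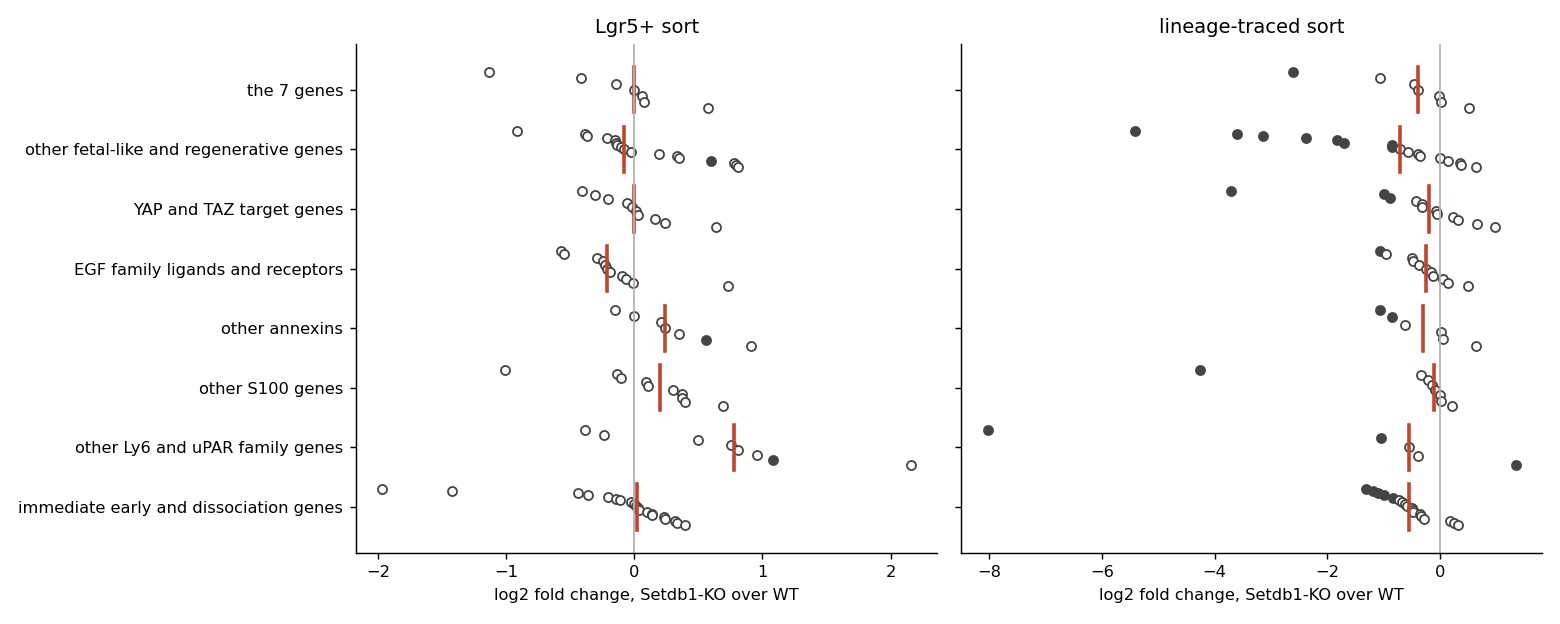
Log2 fold change of Setdb1-KO over WT (x axis, log2 scale) of each tested gene of each list (rows), by sort, over all kept barcodes; filled points have an edgeR adjusted p under 0.05 and the red bar is the median of the list. The other fetal-like and regenerative genes have a median of -0.08 in the Lgr5+ sort and -0.72 in the lineage-traced sort, where 8 of 17 points are filled, all below 0.

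Other signals moved with genotype. Their part in the results above was not tested, beyond the settings that left out enterocyte-like barcodes or those with immune markers. The counts over all cells below stand against the shares of all genes called with the main settings. These were 0.812% higher and 0.527% lower in the Lgr5+ sort, and 1.54% higher and 7.19% lower in the lineage-traced sort. For lineage-traced cells all 9 tested enterocyte markers (median -3.81) and all 7 Paneth markers (median -2.61) were called lower in the libraries labelled Setdb1-KO, and 7 of 9 tuft markers (median 1.05) were called higher. In the Lgr5+ sort 3 of 9 enterocyte markers were higher (median 1.10). The 12 T cell markers summed to 131 and 79.3 CPM in Lgr5+ WT and 21.3 and 15.3 CPM in Lgr5+ Setdb1-KO, all 12 having at least 1 UMI in each library. There 4 of 12 were called lower, led by Gzma (-2.56, adjusted p = 0.00412), Ccl5 (-2.79, adjusted p = 0.00554) and Trbc2 (-3.28, adjusted p = 0.0314). Of the B cell and myeloid markers, Cd79a was lower in the Lgr5+ sort (1 of 6; -3.95, adjusted p = 0.0404) and C1qa higher in the lineage-traced sort (1 of 2; 2.66, adjusted p = 0.0102), both under 2 CPM in every library. The call of Cd79a held in 5 of the 12 alternative settings in which it could be fitted (DESeq2 gave it no adjusted p), and that of Trbc2 in 7 of 13. No stromal or endothelial marker had enough UMIs for the test. Of the immediate early genes, which rise when tissue is dissociated, 0 of 20 were called in the Lgr5+ sort and 5 of 18 were lower in the lineage-traced sort, with Klf6 (-1.31, adjusted p = 0.00296), Zfp36 (-0.99, adjusted p = 0.0116) and Klf4 (-1.18, adjusted p = 0.0120) leading, a count that became 3 higher and 1 lower with library totals. Of the interferon-stimulated genes, 0 of 20 were called over all cells of the Lgr5+ sort (2 to 4 were lower with DESeq2, with library totals and without WT 2 or KO 2), where the median of the list was -0.63 against -0.01 for all genes tested. By class, Bst2 was lower there in dividing progenitor-like (-0.77, adjusted p = 0.0228) and remaining barcodes (-0.70, adjusted p = 0.0257), and Ifi27l2b higher in stem-like ones (0.55, adjusted p = 0.0381). In the lineage-traced sort Bst2 (1.28, adjusted p = 0.0356) and Ifi44 (2.48, adjusted p = 0.0310) were higher and Ifit1 (-1.92, adjusted p = 0.00851) and Stat2 (-1.05, adjusted p = 0.0151) lower, while library totals gave 5 higher and 1 lower.

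Across 63 profiles, each 1 class in 1 library of either sort, the genes whose log2(CPM + 1) followed each of the 7 most closely were listed among 6645 genes. The profiles share libraries and differ in depth, so the values of Pearson's r describe them only. Anxa5 was followed by Parm1 (0.91), Upb1 (0.86) and Rasa4 (0.82), and Ly6a by Anxa5 itself (0.80), Upb1 (0.79) and Parm1 (0.75). Anxa3 was followed by Pla2g10 (0.84), Bcas1 (0.83) and Fcgbp (0.79), and S100a6 by Tmsb10 (0.86), Clca1 (0.84) and Muc2 (0.84), of which Fcgbp, Clca1 and Muc2 are goblet markers that defined that class. Clu was followed by Zbtb38 (0.67), the stem marker Axin2 (0.63) and Cdca7 (0.62), and Anxa1 by Tspan6 (0.69), Gng13 (0.69) and Bmx (0.65). For Areg the 3 closest were Gm5485 (0.64), Akp3 (0.63) and Enpp3 (0.62). The closest genes of Clu, Anxa1 and Areg all had an r under 0.7, lower than those of the other 4 genes.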

How the data were processed

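The 8 single-cell libraries were deposited as unfiltered matrices of UMI counts per gene and barcode, which the authors made with Cell Ranger 6.1.1 on mm10, by the submitters' processing notes, which also name Seurat 5.0.3. The study's 10 further samples were left out. Intervals and floors cover counting error only.

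Kept barcodes joined the class whose marker share most exceeded a threshold of 2 times the highest share in empty droplets (at most 50%), with at least 3 marker UMIs, a rule chosen after the files were seen. The 7 genes, the gene lists and the tests were chosen with earlier results of these data known. Counts were summed per library and class and tested with edgeR 4.0.16 (quasi-likelihood, filterByExpr, TMM, Benjamini-Hochberg over all genes tested, adjusted p under 0.05) in R 4.3.3, each sort on its own 4 libraries except in the interaction. Shares of barcodes were compared by exact permutation (scipy 1.17.1). Alternatives were DESeq2 1.42.0, library totals without TMM, no filter, a replicate block, a doubled UMI minimum, a mitochondrial limit of 10%, limits of 200 to 4000 genes per barcode, Scrublet (scanpy 1.11.5, top scorers at 0.8% per 1000 barcodes), stricter classes, each library left out, and, added after seeing the data, enterocyte-like or immune-marker barcodes left out and alternatives of the interaction within classes. Doublets were kept otherwise. The text names Setdb1, the 7 genes, at most 3 called genes per list, direction and sort, by adjusted p, and 3 closest genes of each of the 7. A gene in several lists counts under each. On simulated counts over 13662 genes of the Lgr5+ sort, edgeR recovered 71% (log2 change of 1) and 93% (log2 change of 2) of changed genes. Over 12205 genes of the lineage-traced sort it recovered 62% and 96%. The simulation covered sums over all kept barcodes only, with the same fixed dispersion for every gene and no shift of scaling between libraries. These shares therefore do not describe the tests within classes, or genes that vary more between libraries. P-values measure the spread between the libraries that the labels call replicates.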

Additional observations from a re-analysis of the deposited data

Results flagged for a closer look

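The difference between libraries labelled Setdb1-KO and WT was unequal in the 2 sorts in 3 results, by the test of the interaction of genotype and sort (edgeR, Benjamini-Hochberg over all genes tested). For Areg over all kept barcodes, the log2 fold change in the lineage-traced sort lay 2.45 below that in the Lgr5+ sort (difference -2.45, adjusted p = 0.0111). For Areg in the remaining barcodes the difference was -3.07 (adjusted p = 0.00716), with values of 1.05 in the Lgr5+ sort and -2.04 in the lineage-traced sort. For S100a6 in enterocyte-like barcodes it was -1.97 (adjusted p = 0.0443), from 0.62 in the Lgr5+ sort and -1.40 in the lineage-traced sort, where only 53 and 161 barcodes of this class were in the libraries labelled Setdb1-KO. S100a6 in this class lay under its level in empty droplets in both sorts, at a mean of 24.7 CPM against 126 to 195 CPM in the Lgr5+ sort and at 59.7 to 528 CPM against 551 to 665 CPM in the lineage-traced sort. This difference was lost in 5 of 12 alternative settings, and that of Areg in the remaining barcodes in 2 of 12. With 2 libraries a group, no sample could be tested as standing apart within its group.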

How the results depend on the processing

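Numbers of called genes moved with the method. The Lgr5+ sort had 183 called genes, 488 with DESeq2, 363 without TMM, 35 without a filter, 51 with a replicate block and 65 to 527 with 1 library left out. The lineage-traced sort had 1066, 652 with DESeq2, 3807 without TMM, 554 without enterocyte-like barcodes, 2579 with the replicate block and 586 to 2449 with 1 library left out. For the 7 genes by class, the directions of pairs gained under alternatives are not given here. The counts therefore do not show whether a pair was higher. In the Lgr5+ sort 1 pair was called, 0 with DESeq2, with a doubled UMI minimum and with a mitochondrial limit of 10%. There were 2 without a filter, and the count moved most without Setdb1-KO 2. The lineage-traced sort had 5, 3 without a filter and with Scrublet doublets removed, and from 2 to 7 over the 14 alternatives. The difference between sorts was called for 1 gene, for 2 with DESeq2, without TMM and with the block, for 3 without a filter, and for 1 to 2 with 1 library left out. Of 14 shares of barcodes, 6 did not overlap between genotypes. Among genes with at least 20 UMIs, 19.2% were higher and 22.1% lower without overlap by the same share in the Lgr5+ sort. In the lineage-traced sort 43.5% were higher and 12.0% lower. With 1 library left out 6 to 11 of the 14 did not overlap, where a group of 1 overlaps less easily and no share over all genes was counted. The other causes were not tested. Same-numbered libraries deviated together with r = 0.00989 (Lgr5+) and r = 0.311 (lineage-traced), with 2 pairs each, so the numbers were not taken to pair them.

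Directions were reversed only for values that missed the threshold. For Anxa5 in the Lgr5+ sort the log2 fold change was 0.0024 with limits of 200 to 4000 genes, 0.016 with the mitochondrial limit of 10% and 0.057 without enterocyte-like barcodes. In the lineage-traced sort, without TMM, Ly6a was 0.0026, Anxa1 0.059 and Anxa3 0.54. There Anxa3 was 0.054 with DESeq2, 0.019 without a filter, 0.065 with the block and 0.041 with the limit of 10%, and Anxa5 was -0.0052 with the block, -0.074 with the doubled minimum, -0.048 with the limit of 10% and -0.048 without enterocyte-like barcodes. With 1 library left out, the lone library of a group being taken to vary like the others, the ranges in the Lgr5+ sort were -0.13 to 1.88 for Anxa1, -0.0084 to 0.13 for Anxa3, -0.22 to 0.16 for Anxa5, -0.15 to 0.34 for S100a6 and -0.55 to 0.42 for Areg, and in the lineage-traced sort -0.29 to 0.32 for Anxa3 and -0.075 to 0.087 for Anxa5. The block also brought S100a6 over all lineage-traced barcodes past the threshold (adjusted p = 0.000313) and took Setdb1 in the Lgr5+ sort out of it (adjusted p = 0.112). Of 338 single-gene values under alternatives, 270 kept direction and side of the threshold, 29 lost the call, 13 gained it and 26 turned direction. Areg in dividing progenitor-like lineage-traced barcodes had too few UMIs to be tested under Scrublet and under stricter classes.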
